A study of Mus musculus with 6 samples.

Results

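The regions described here are peak intervals of RNA recovered with Ago2 that lay in the 3'UTRs of mouse mRNAs and touched no coding sequence. Peaks of 5 RISC-IP libraries were merged wherever they overlapped or touched, and an interval was kept when it covered at least 1 base of a 3'UTR (GENCODE M21, mm10) and no base of any annotated coding sequence or 5'UTR. The rule kept 3851 of 41363 merged intervals, or 9.31%, and they were assigned to 3111 genes. It used positions only, so the signal of the intervals and the libraries that called them did not enter the choice. All libraries came from primary mouse satellite cells, the stem cells of skeletal muscle, kept in differentiation medium for 30 h, transfected with duplex RNA and kept in that medium for a further 16 h (MSC myocytes). The labels give 10 nM of duplex, and the methods of the study give another concentration. Control-IPs received a duplex against GFP and miR-222-IPs received miR-222, and no allele or genotype is given. RNA bound to Ago2 was recovered with an anti-Ago2 antibody, and its cDNA was amplified and only then fragmented. A peak thus marks where reads gathered on a recovered RNA and need not be where Ago2 sat. Experiment 1 supplied the first miR-222-IP and control-IP replicates 1 and 2, and experiment 2 supplied the second miR-222-IP and control-IP replicate 4. Control-IP replicate 3 of experiment 2, whose peaks are wide, was left out by the rule. The labels do not say whether libraries of 1 experiment came from separate cultures, so the tests measure the spread between these libraries, which may be technical.

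Ago2 is the Argonaute protein that carries a miRNA in the RISC. The miRNA pairs with an mRNA mainly through its seed, bases 2 to 8 counted from its 5′ end, and the 3'UTR is the part of an mRNA where such pairing is best known to lower translation and mRNA stability. The 3'UTR also holds the poly(A) signal and the binding sites of proteins that set the life and the place of an mRNA. miR-222 shares its seed with miR-221, and the pair targets cell cycle inhibitors and is known to decline when satellite cells differentiate, whereas miR-206 and miR-133 belong to the set that increases in muscle.

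The mature miRNAs with which the intervals were searched are shown first, because their seeds define the matches counted below. Sequences were taken from RefSeq (GRCm38.p6), and capitals mark the seed.
mmu-miR-222-3p: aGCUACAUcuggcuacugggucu
mmu-miR-206-3p: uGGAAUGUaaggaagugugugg
mmu-miR-133b-3p: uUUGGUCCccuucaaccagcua
mmu-let-7a-5p: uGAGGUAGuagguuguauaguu
mmu-miR-29a-3p: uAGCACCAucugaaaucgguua
None of these 5 seeds is shared with another. The match of the miR-222 seed on the mRNA is ATGTAGC, called the 7-mer, and an A after it, opposite base 1 of the miRNA, makes it the 8-mer. Sites were searched on the strand of the assigned gene.

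The matches that the miR-222 comparisons below turn on are shown with 11 bases on each side, in the genome of that build and on the strand of the gene, with the 7-mer in capitals. All lay in annotated 3'UTR.
Cdv3, chr9:103353917-103353923, minus strand: aatagtcagtaATGTAGCatttctgttgt
Bcl2l11, chr2:128162366-128162372, plus strand: gaacccagcgtATGTAGCatttgtattgc
Bmf, chr2:118528945-118528951, minus strand: gacccagcgagATGTAGCatttccttcat
Ets1, chr9:32756950-32756956, plus strand: atacactggaaATGTAGCagcattgctgc
Ets1, chr9:32757612-32757618, plus strand: gtagcttagagATGTAGCgatgtaagtgt
Elmod2, chr8:83314078-83314084, minus strand: gtaaaattacaATGTAGCaattggtagta
Kmt2c, chr5:25272471-25272477, minus strand: aacatagagtcATGTAGCagggacctaac
Ttc28, chr5:111288107-111288113, plus strand: gctaactcaccATGTAGCagatgaaaaaa
Gclm, chr3:122267361-122267367, plus strand: atggtccttacATGTAGCattgaaaggtc
Of these 9 matches, 8 are followed by A and are 8-mers, and the second site of Ets1 is not. Cdv3 is shown because its interval had the largest ratio of miR-222-IP to control-IP, Bcl2l11, Bmf and Ets1 because they are known targets, and the last 4 because a peak was called there in both miR-222-IPs and in no control-IP.

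The measurement is the −log10 p that the peak caller gave each peak, 20 or more in every list. It grows with the number of reads, the width of the peak and the enrichment together, and the number of reads is unknown, which leaves counting error without an interval. In the sentences below the 3 control-IPs are always given in the order of replicates 1, 2 and 4, and the 2 miR-222-IPs in the order of replicates 1 and 2. The lists held from 10579 peaks in control-IP replicate 1 to 37762 in miR-222-IP replicate 2. The labelled cell type was checked on marker genes, with the highest value over any interval on a gene's exons. Of 12 skeletal muscle markers, 9 to 11 had a peak in the other 4 libraries with a summed −log10 p of 315 to 514, and all 12 had one in miR-222-IP replicate 2 with a sum of 1701. Of 6 macrophage markers, 5 or 6 had a peak in each library with a sum of 742 to 898, Adgre1 and Lyz2 leading. Of Schwann cell markers, Mbp had a peak of 176 to 237 in each library and S100b one of 23.0 to 70.6 in all but control-IP replicate 4, whereas Sox10 had none in any library. Fibroblast markers had peaks for 0 or 1 of 8 genes in a library with sums up to 41.8, endothelial markers for 1 or 2 of 6 with sums of 26.1 to 106, and adipocyte markers for 0 of 5. In such bulk samples fewer cells of a type and less RNA per cell cannot be told apart.

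The 3'UTR-only intervals sat inside long 3'UTRs, which the rule favours, and often reached the annotated end of the transcript. Their median width was 759 bp, with quartiles of 501 and 1084 bp and a range of 184 to 3891 bp. All bases lay in 3'UTR in 3338 of them, or 86.7%, and the others ran into introns or past the annotated end. The 3'UTR of the assigned transcript had a median length of 2727 nt. The middle of an interval lay a median of 1285 nt after the stop codon, with quartiles of 760.5 and 2150.5 nt. By relative position, 20.9% of the intervals had their middle in the first part of a 3'UTR cut in 3 equal parts, 42.6% in the middle part and 36.6% in the last.

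**Figure D1:**
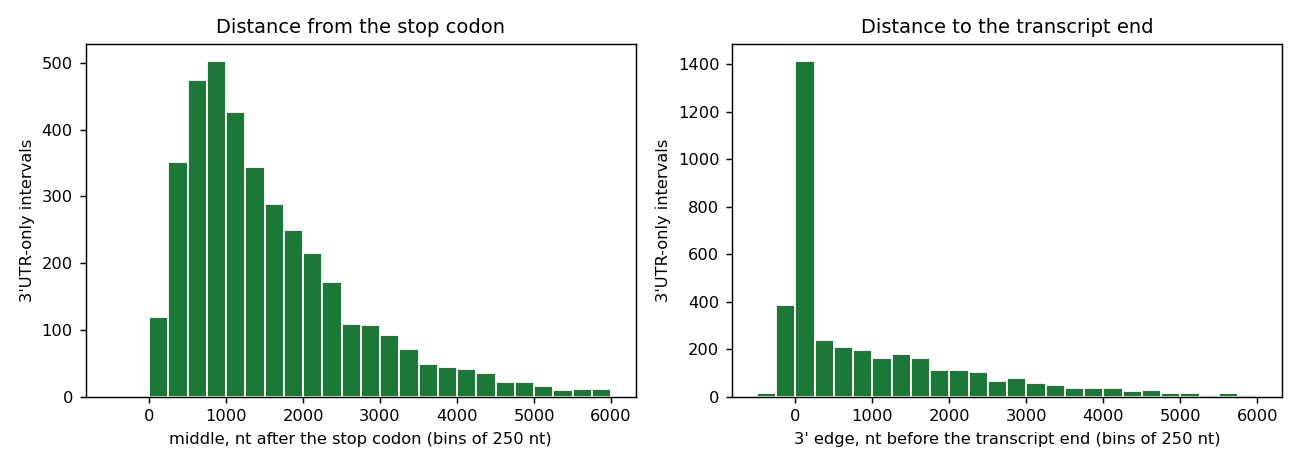
Number of 3'UTR-only intervals in bins of 250 nt by the distance of their middle from the stop codon (left) and of their 3′ edge from the annotated transcript end (right, negative values beyond the end). The bin from 750 nt holds the most on the left, with 503 intervals, and the bin of 0 to 250 nt before the end holds 1414 on the right.

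The 3′ edge lay within 100 nt of the annotated transcript end in 1430 intervals (37.1%) and more than 1000 nt before it in 1366 (35.5%). Only 60 ran more than 100 nt past it. A poly(A) signal, AATAAA or ATTAAA on the mRNA strand, stood in the last 60 nt of the annotated transcript for 1283 of the 1430 intervals that ended there (89.7%). That share describes the annotated ends and not the intervals, and no share over other annotated ends stands beside it. Intervals at the end were called in all 5 libraries in 24.5% of cases, against 16.3% of those more than 1000 nt before it. Their median −log10 p was also higher in each library, from 35.8 against 31.5 in control-IP replicate 1 to 53.7 against 39.4 in miR-222-IP replicate 2. Widths were closer, with medians of 770.5 and 690 bp.

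Genes with such an interval had longer 3'UTRs than the rest. Among 10100 protein-coding genes with a 3'UTR and any interval on their exons, 30.8% held at least 1. The longest annotated 3'UTR had a median of 2455 nt in genes with one and 868 nt in the others. The share climbed from 2.98% of 2281 genes whose longest 3'UTR was up to 500 nt, through 31.97% of 2631 genes between 1000 and 2000 nt, to 71.5% of 473 genes over 5000 nt. The rule favours such a climb by itself, because a short 3'UTR leaves little room for an interval that touches no coding sequence. How much of the climb the rule accounts for was not tested. A single interval was found in 2516 genes, 2 in 486 genes and more in 109 genes. In 79 intervals 3'UTRs of both strands were covered, and without strand the transcripts there cannot be told apart.

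The genes with the most intervals were Zbtb20 with 9, and Cux1, Mindy2, Slc1a2 and Tmem245 with 5 each. Zbtb20, a zinc finger repressor, has an annotated 3'UTR of 23858 nt, and its intervals were spread over chr16:43618809-43642031. Of the 9, 4 were called only by the second miR-222-IP, 3 only by the second control-IP and 2 by both of these, with values between 21.3 and 49.6. The other 3 libraries called none of them. Slc1a2, the glutamate transporter best known in astrocytes, had 1 interval called in all 5 libraries. At chr2:102787040-102787818 the control-IPs had −log10 p of 65.9, 58.0 and 77.9 and the miR-222-IPs 44.9 and 61.1. Each miR-222-IP was below the control-IPs of its own experiment, with log2 ratios of −0.81 and −0.94 after the scaling described below. Cux1, a homeodomain factor, had 1 interval in 4 libraries, with values of 20.8 to 55.1, and 4 in 1 library each. Tmem245 and Mindy2 had none in more than 3 libraries.

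A comparison of 3'UTR-only with coding-only intervals asked whether peak signal differed between these classes. Coding-only intervals covered at least 1 coding base and no 3'UTR or 5'UTR by the same annotation, and they could run into introns. An interval of Myo10, for instance, had 125 coding bases in 268 bp. Widths, GC content and motif densities of this class are therefore not those of coding sequence alone. The signal was higher in 3'UTR-only intervals in each of the 5 libraries, by a small amount. Median −log10 p of 3'UTR-only intervals was 34.1, 37.0 and 38.5 in the control-IPs and 39.1 and 45.2 in the miR-222-IPs. Coding-only intervals had 30.7, 32.6 and 32.5 in the control-IPs and 32.4 and 35.9 in the miR-222-IPs. The difference was 0.24 ± 0.07 on the log2 scale (SD, n = 5 libraries), a ratio of 1.18, with p = 0.0625 by a two-sided exact sign-flip permutation test, which is the smallest p that 5 libraries allow, and 0.0729 after Benjamini-Hochberg adjustment over 7 comparisons. The direction was above 0 in 5 of 5 libraries.

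**Figure D2:**
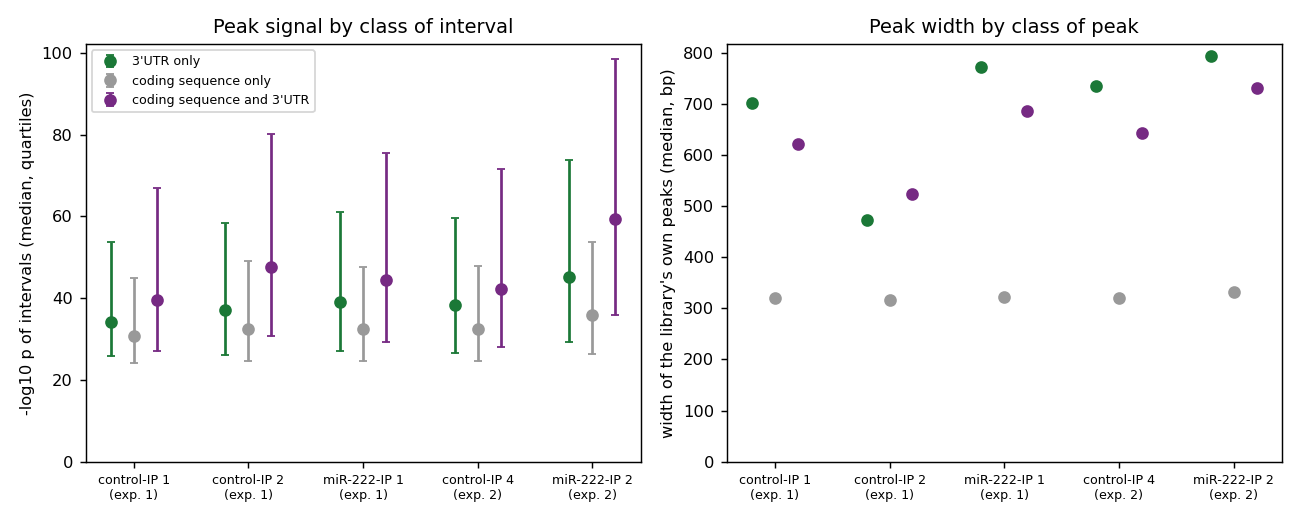
Median −log10 p with quartiles of the intervals with a peak in each library (left) and median width in bp of each library's own peaks (right), for 3'UTR-only intervals, coding-only intervals and intervals with both, in the 5 libraries. The 3'UTR-only medians lie between those of the coding-only intervals and of those with both on the left, and control-IP replicate 2 has the narrowest 3'UTR peaks on the right, at 473 bp.

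Intervals that covered bases of both coding sequence and 3'UTR, of the same or of different transcripts, had the highest medians of these 3 classes. Their medians ran from 39.7 to 59.4, and 3'UTR-only intervals were lower in 5 of 5 libraries, by a log2 difference of −0.26 ± 0.11 (SD, n = 5 libraries; exact sign-flip permutation p = 0.0625, adjusted 0.0729). Within genes that had both a 3'UTR-only and a coding-only interval in a library (284 to 1510 genes), the 3'UTR interval was higher in 53.2% to 62.7% of genes. The mean over libraries of the median difference within genes was 0.16 ± 0.07 on the log2 scale (SD, n = 5 libraries; exact sign-flip permutation p = 0.0625, adjusted 0.0729).

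Peaks of the 3'UTR-only class were wider than coding-only ones. Each library's own peaks were used for this, so a peak counted here may be part of a wider merged interval. Median widths in bp were 702, 473 and 734 for the control-IPs and 772 and 793 for the miR-222-IPs, against 316 to 331 bp for coding-only peaks. The difference was 1.09 ± 0.29 on the log2 scale (SD, n = 5 libraries), a ratio of 2.12, with exact sign-flip permutation p = 0.0625 (adjusted 0.0729). Against coding-only peaks inside an exon of at least 1000 bp, a choice made after seeing the data, the ratio was 1.42, and the signal difference was 0.26 on the log2 scale. Against peaks with both coding sequence and 3'UTR the log2 difference in width was 0.10 ± 0.14 (SD, n = 5 libraries; exact sign-flip permutation p = 0.188), 3'UTR-only peaks being narrower in control-IP replicate 2 alone.

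Which libraries called an interval varied widely. A peak in all 5 libraries was found for 764 of the 3851 intervals, 19.8%, beside 19.2% of all merged intervals. The share was 33.2% for intervals with both coding sequence and 3'UTR and 13.1% for coding-only ones. The second miR-222-IP, with the longest list, was the only library to call 926 of them, 24.0%, beside 31.3% of all intervals and 37.6% of coding-only ones. With every list shortened to the length of the shortest, that share was 4.70%. Control-IP replicate 2 alone called 423 intervals, 10.98%, against 6.65% of all intervals, and these were narrow, with a median of 346 bp. The other 3 libraries alone called 6 to 56.

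**Figure D3:**
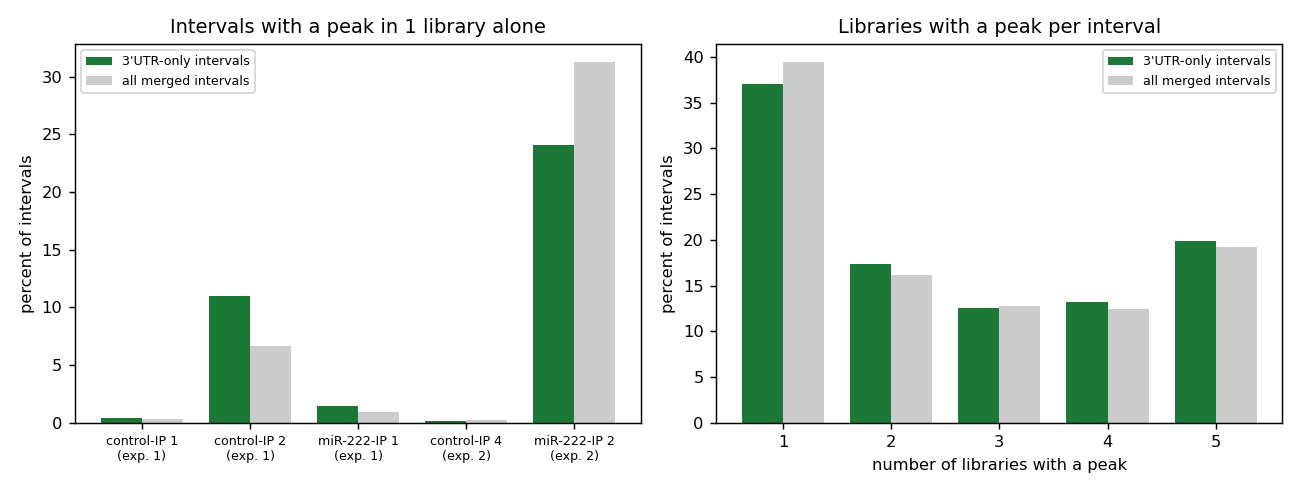
Percent of 3'UTR-only intervals (green) and of all merged intervals (grey) with a peak in 1 library alone (left) and in 1 to 5 libraries (right). Intervals seen in 1 library alone come mostly from miR-222-IP replicate 2 and control-IP replicate 2, and the shares with 5 libraries are close, 19.8% and 19.2%.

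The share of a library's intervals that were 3'UTR-only went from 10.8% in the shortest list to 8.77% in the longest. The difference, miR-222-IPs minus control-IPs of the same experiment, was −0.64 percentage points, with exact permutation p = 0.167, the smallest that the 6 arrangements of labels within experiments allow.

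The 10 intervals with the highest mean log2 −log10 p were in Wdr89, Fmnl3, Sun2, Ier5, Pitpna, B2m, Cmpk1, Ppp3r1, Mrfap1 and Srsf2. The values say how strongly a peak stood out and are not levels of the mRNAs. The interval of Wdr89, chr12:75630854-75631445, had −log10 p of 294, 292 and 293 in the control-IPs and of 293 and 281 in the miR-222-IPs. Fmnl3, an actin-assembling formin, had 244, 236 and 250 in the control-IPs and 238 and 200 in the miR-222-IPs. B2m, the light chain of MHC class I, had 181, 205.5 and 200 against 188 and 172. These 3 genes share a value in miR-222-IP replicate 2 below that of every control-IP, before any scaling and in the library with the longest list. The same order held for Sun2, of the nuclear envelope, with 177 in miR-222-IP replicate 2 against 214 to 236 in control-IPs, and for Srsf2, an SR splicing factor, with 142 against 165 to 204. Cmpk1, a nucleotide kinase, went the other way, with 228 and 213 in miR-222-IPs against 143 to 192 in control-IPs. Ppp3r1, the regulatory subunit of calcineurin, had 192 and 193 against 158 to 184. Ier5, an immediate early gene, Pitpna, a phosphatidylinositol transfer protein, and Mrfap1 had 209, 176 and 207 in miR-222-IP replicate 2, each within the range of the control-IPs or, for Mrfap1, above it. Mrfap1 was far lower in the second control-IP, with 97.8, than in the other 4 libraries, with 194 to 214. None of the 10 intervals held the miR-222 7-mer.

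The 3'UTR-only intervals of sarcomere protein genes had their highest value in miR-222-IP replicate 2, the library with the longest list. Those of Myl1, Ttn, Myl4 and Mybpc1 were called by it alone, so their highest value could lie nowhere else. The share of all 3'UTR-only intervals with their highest value there was not computed. Of 33 sarcomere protein genes with an interval on their exons, 6 held a 3'UTR-only interval, 18.2% against 30.8% of all such genes, and 24 held one with both coding sequence and 3'UTR. The median of their longest 3'UTRs was 311 nt over the 35 genes of the list. Myl1, a fast myosin light chain, was called only by the second miR-222-IP, with −log10 p of 178. Tnni1, slow troponin I, had 214 there, 21.1 in miR-222-IP replicate 1 and 22.9 in control-IP replicate 4, and no peak in the other control-IPs. Ttn, titin, had 80.4 and Cap2, an actin regulator, had 73.7 in miR-222-IP replicate 2, with 21.2 for Cap2 in control-IP replicate 1. Myl4 and Mybpc1 had 50.6 and 39.7 in that library alone. None of the 6 had a peak in all 5 libraries, so no ratio was formed.

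Among the 926 intervals that only this library called, the 12 with the highest values, named after they were seen, were those of Myl1, Wnt9a, Mafa, Hoxc10, Smyd1, Lmna, Gpr63, Ybx3, Speg, Ttn, Slc6a8 and Igdcc4, from 178 down to 73.1. Myl1 and Ttn are on the sarcomere list, and the others are on neither that list nor that of the muscle markers. Smyd1 is a muscle methyltransferase, Speg a kinase of striated muscle and Slc6a8 the creatine transporter. A further interval of Speg, chr1:75403921-75404596, was called in all 5 libraries, with 25.7, 41.9 and 55.9 in the control-IPs against 73.6 and 157 in the miR-222-IPs, above in both experiments. Beside these values stands the sum over muscle markers of the same library, 1701 against 315 to 514 in the other 4. Chrna1, a subunit of the acetylcholine receptor and a marker, also had its 3'UTR-only interval there alone, with 49.6. With 1 miR-222-IP per experiment, the duplex, the length of the peak list and the muscle markers cannot be told apart as they move together in this library.

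The comparison of miR-222-IP with control-IP was made on the 764 intervals that all 5 libraries called, after scaling each library by the median of its ratios to the geometric mean. Log2 ratios were formed within each experiment and averaged. Both miR-222-IPs were above every control-IP of their experiment in 140 intervals, 18.3%, beside 17.4% of all 7935 intervals compared. Both were below in 88, 11.5%, beside 18.4% of all. The split rests on the scaling: without it the counts were 404 above and 16 below, and with scaling to the summed −log10 p they were 12 above and 233 below. The mean log2 ratio of 3'UTR-only intervals was 0.09 in experiment 1 and 0.08 in experiment 2, against 0.08 and −0.07 in coding-only intervals. The difference between the classes was 0.08, with exact permutation p = 0.333 over 6 arrangements (adjusted over 3 comparisons 0.50), and it was −0.0082 without control-IP replicate 4, whose absence leaves experiment 1 alone. The 2 experiments did not order the intervals alike: Pearson's r between their log2 ratios was −0.002 and Spearman's rho −0.02 over 764 intervals, which share libraries within an experiment. The spread over intervals was 0.51 and 0.55 (SD), and the log2 ratio of the 2 control-IPs of experiment 1 had an SD of 0.85.

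**Figure D4:**
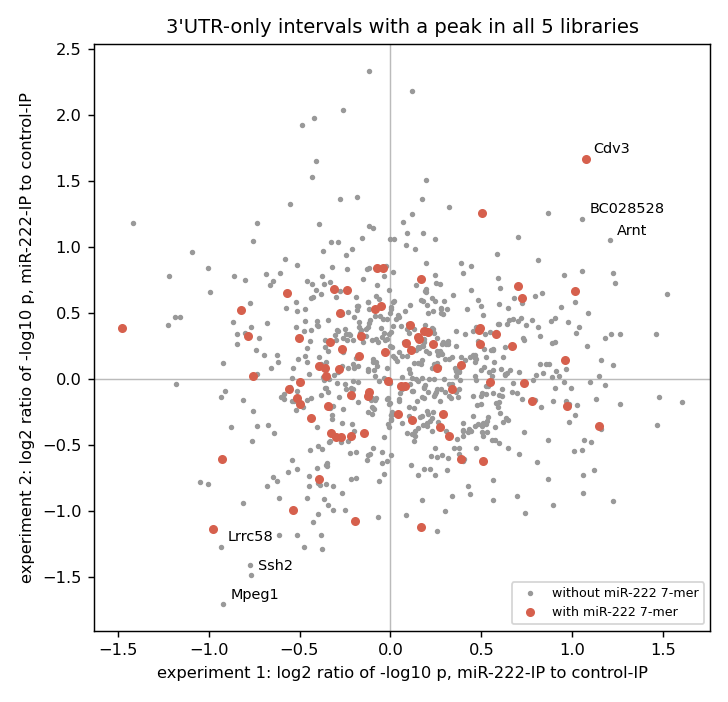
Log2 ratio of scaled −log10 p, miR-222-IP to control-IP, in experiment 1 (x axis) and experiment 2 (y axis) for the 764 intervals that all 5 libraries called, with the 80 that hold the miR-222 7-mer in red. The cloud shows no slope, and Cdv3 stands at the upper right with 1.08 and 1.67.

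The ratios depended on the level. Of the 191 intervals with the highest mean level, 14 were above in both experiments and 37 below, and of the 191 with the lowest, 50 were above and 16 below. Over all intervals compared the top and bottom groups of like share had 136 above and 669 below, and 432 above and 266 below. The median log2 ratio in experiment 2 was −0.30 for the high 191 and 0.29 for the low 191, and in experiment 1 it was 0.10 and 0.02.

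By the naming rule, Cdv3, BC028528 and Arnt had the largest mean log2 ratios among intervals above in both experiments, and Mpeg1, Ssh2 and Lrrc58 the smallest among those below. They were chosen for these values, which are therefore a description. The interval of Cdv3 (chr9:103353129-103354194, 1066 bp, reaching the end of its 2910 nt 3'UTR) had 22.9 and 30.3 in the control-IPs of experiment 1 against 71.0 in its miR-222-IP, and 23.6 against 113 in experiment 2. Both miR-222-IPs were above all control-IPs, also unscaled, and its site printed above is an 8-mer. BC028528 had 37.5 and 37.9 against 100 in experiment 1 and 33.9 against 119 in experiment 2, and Arnt, the partner of HIF-1α, had 73.7 and 29.3 against 137 and 31.2 against 97.4. Neither holds the 7-mer. The interval of Mpeg1, a perforin-like gene of macrophages, had 66.2 and 55.7 against 41.0 and 48.0 against 22.1. The summed −log10 p of the 6 macrophage markers was 742 and 785 against 848 in experiment 1 and 898 against 824 in experiment 2, before scaling, and the part of such cells in the value of Mpeg1 was not tested. Ssh2, a cofilin phosphatase, had 65.7 and 73.1 against 52.0 and 59.95 against 32.1, and Lrrc58 had 75.6 and 100 against 58.2 and 81.7 against 50.9.

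The miR-222 7-mer was found 270 times in 258 of the 3851 intervals, 6.70%, and 268 of the sites lay in annotated 3'UTR. An 8-mer stood in 91 intervals. Intervals with the 7-mer were wider, with a median of 1059.5 bp against 737 bp, and longer sequences hold more matches. A peak in both miR-222-IPs and in no control-IP was found for 240 of the 3851 intervals, 6.23%, beside 6.37% of all merged intervals. It was found for 16 of the 258 with the 7-mer, 6.20%, and for 224 of the 3593 without, 6.23%.

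Intervals with the 7-mer had a peak more often in each library than those without, from 56.2% against 52.2% in control-IP replicate 2 to 69.0% against 51.3% in miR-222-IP replicate 1. Control-IP replicates 1 and 4 had 40.3% against 28.4% and 56.2% against 40.6%. These shares are not matched for width, and within 4 classes of width the gap kept neither its size nor, in control-IPs, its direction. In the widest class, of 1084 bp or more, all 5 libraries had the higher share with the 7-mer, such as 83.1% against 79.0% in miR-222-IP replicate 1 and 54.0% against 49.9% in control-IP replicate 1. The other 3 classes, from the narrowest up, held 28, 41 and 65 intervals with the 7-mer, so their shares rest on few intervals. There control-IP replicate 2 had 50% against 58.3%, 26.8% against 40.3% and 41.5% against 46.7%. Control-IP replicate 1 was also lower with the 7-mer in the narrowest 2, with 7.14% against 9.76% and 14.6% against 20.3%. Control-IP replicate 4 had 21.4% against 15.2%, 34.1% against 34.4% and 55.4% against 49.4%. The first miR-222-IP was higher with the 7-mer in all 4 classes. Where all 5 libraries had a peak, the difference in mean log2 ratio, the 80 intervals with the 7-mer minus the 684 without, was −0.06 (differences of −0.10 in experiment 1 and −0.02 in experiment 2), with exact permutation p = 0.167, the smallest possible (adjusted over 3 comparisons 0.50). The sign turned with the 8-mer, to 0.050 over 33 intervals. Of the 80, 13 were above in both experiments (16.2%, against 18.6% of those without) and 13 below (16.2%, against 10.96%).

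In 4 of the 91 intervals with an 8-mer, 4.40%, a peak was called in both miR-222-IPs and no control-IP, beside 6.37% of all merged intervals. That of Elmod2, chr8:83313093-83315199, had −log10 p of 28.0 and 43.7 in the miR-222-IPs. Kmt2c, a methyltransferase of histone H3 lysine 4, had 26.7 and 27.5 at the end of its 3'UTR. Ttc28 had 21.8 and 26.1, and Gclm, the modifier subunit of the enzyme that makes the glutathione precursor, had 20.6 and 20.1. The values of Ttc28 and Gclm lay close to the threshold of 20 below which no peak is listed, so the lack of a peak in the control-IPs does not give the size of a difference.

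Of 14 known targets of miR-221 and miR-222 with an interval on their exons, 8 held a 3'UTR-only interval, 57.1% against 30.8% of all such genes. The longest 3'UTRs of the list had a median of 3171 nt, and of all genes between 3000 and 5000 nt 65.3% held one. Among them were Timp3, Bbc3, Bcl2l11, Bmf, Foxo3, Ets1 and Ddit4, and the 8 genes had 13 intervals in all. Of these 13, 3 held the miR-222 7-mer, in Bcl2l11, Bmf and Ets1. Bcl2l11 encodes Bim, a BH3-only protein that promotes apoptosis. Its interval, chr2:128160866-128162385, had 134, 66.8 and 166 in the control-IPs and 158 and 164 in the miR-222-IPs, which lies within the range of all control-IPs. Before scaling, the miR-222-IP was above both control-IPs of experiment 1 and just below that of experiment 2. The log2 ratios after scaling were 0.39 and −0.61. Bmf, a second BH3-only gene, had 34.3, 21.5 and 36.0 against 39.0 and 91.6 at the interval with the 8-mer. Its intervals without the 7-mer had their highest value in control-IP replicate 2. One of them had 84.6 there against 33.0 and 25.2 in the miR-222-IPs, and no peak in control-IP replicates 1 and 4. Another had 69.2 in control-IP replicate 2 alone. Ets1, a transcription factor, had 48.2, 52.2 and 54.1 against 53.2 and 95.3. At the intervals of Bmf and Ets1 that hold the 7-mer, miR-222-IP replicate 2 stood apart from the other libraries before scaling.

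**Figure D5:**
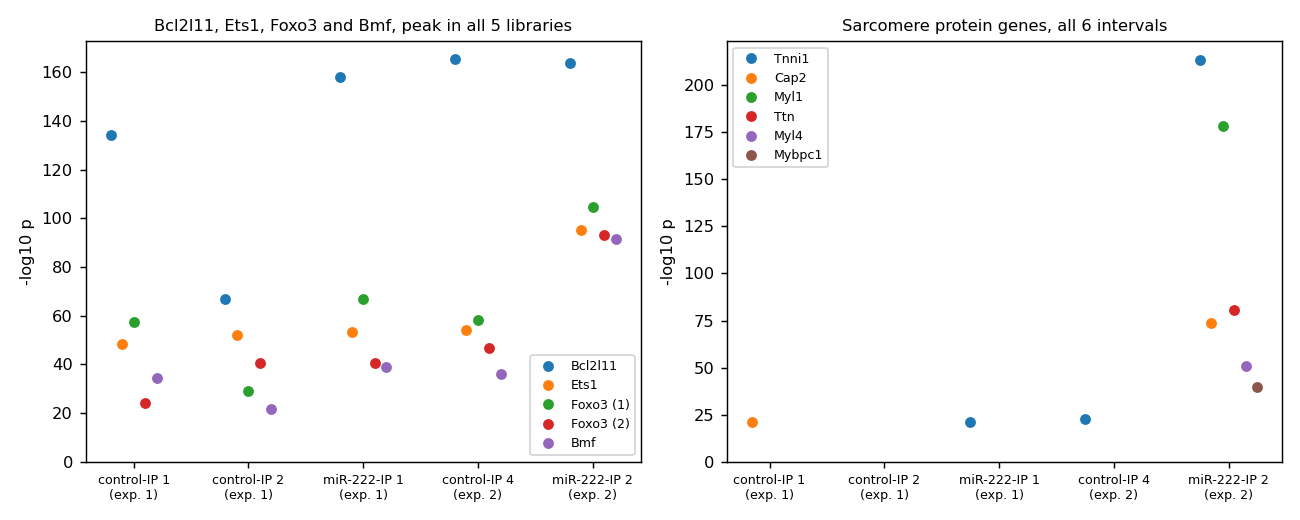
Unscaled −log10 p in each library of the 5 intervals of Bcl2l11, Ets1, Foxo3 and Bmf, known targets of miR-221 and miR-222, with a peak in all 5 libraries (left) and of the 6 intervals of sarcomere protein genes (right), a missing point meaning no listed peak. Bcl2l11 is within the range of all control-IPs in both miR-222-IPs, but in experiment 1 its miR-222-IP is above both control-IPs. The sarcomere points are highest in miR-222-IP replicate 2, the only library with a point for Myl1, Ttn, Myl4 and Mybpc1.

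Foxo3, a forkhead factor, had 2 intervals called in all libraries, one of which had 57.4, 28.9 and 58.3 in the control-IPs against 66.8 and 105 in the miR-222-IPs. After scaling, 0 of the 6 intervals of the listed targets with a peak in all 5 libraries were above in both experiments and 0 were below. Of all intervals compared, 17.4% were above and 18.4% below, and 6 intervals are too few to set 0 apart from these shares. Their median mean log2 ratio was 0.20 for the 6 beside 0.10 over the 764. Ddit4, an inhibitor of mTORC1, had 21.9 in control-IP replicate 2 against 53.0 and 83.6 in miR-222-IPs, and no peak in control-IP replicates 1 and 4. Bbc3, which encodes Puma, and Timp3 were called only by the second miR-222-IP, with 35.5 and 21.2.

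Known targets of 4 other miRNA families were looked up in the same way, and their shares stand beside 30.8% of all genes with an interval. The longest 3'UTRs of these lists had medians of 2019 nt for miR-1 and miR-206, 1608 nt for miR-133, 2725.5 nt for let-7 and 1763 nt for miR-29. Of 9 known targets of miR-1 and miR-206 with an interval, 4 held a 3'UTR-only one (44.4%), and that of Twf1, an actin-binding protein, held the miR-206 7-mer and had 118, 55.8 and 122 in control-IPs against 145 and 144 in miR-222-IPs. Of 8 miR-133 targets, Igf1r and Sp1 held one (25%), and Igf1r, the IGF-1 receptor, had the 7-mer of miR-133 in an interval with 26.4 in control-IP replicate 4 and 33.1 and 57.8 in miR-222-IPs. Of 16 let-7 targets, 7 did (43.8%), and the let-7 match was in the first of 2 intervals of Nras, the GTPase, with 57.1, 89.1 and 46.9 against 86.0 and 71.7. Of 15 miR-29 targets, 8 did (53.3%), and the match was in single intervals of Tet1, Tet2, Tet3 and Yy1, each with a peak in 1 or 2 libraries. The last of these lists had matches in 4 of its 11 intervals, and 9.92% of all 3'UTR-only intervals hold that 7-mer. A match is shown for 1 gene of each list as the letters behind these counts, and the interval of Tet2 was called only by the second miR-222-IP.
Twf1, miR-206, chr15:94578171-94578177, minus strand: gaagtcaatgcACATTCCagaatatagat
Igf1r, miR-133b, chr7:68232400-68232406, plus strand: aattctccccaGGACCAAttgtggttcac
Nras, let-7a, chr3:103064374-103064380, plus strand: cttcagaataaCTACCTCctcactcggct
Tet2, miR-29a, chr3:133466333-133466339, minus strand: gcaggatcatcTGGTGCTgacgtatgatg

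Seed matches of 22 miRNAs were counted per kb in the 3'UTR-only intervals and in 500 bp windows of 3'UTR without any interval, in genes with an interval elsewhere. The ratio of the densities had a median of 1.12 and ran from 0.75 for miR-21a to 1.27 for miR-17, and it was above 1 for 18 of the 22. For miR-222 it was 1.04, rank 17 of 22, with 0.0832 sites per kb in the intervals, 0.0801 in 3'UTR without one and 0.0406 in coding-only intervals. The median of the 630 7-mers with the same bases was 0.0478 per kb in the intervals and 0.0507 outside. Among these 630, counted from the densest, the miR-222 7-mer had rank 109 in the intervals and rank 111 outside. In windows of equal length the miR-222 7-mer stood in 4.01% of 2894 interval centres and in 3.83% of 16978 windows without an interval. For the muscle miRNAs the ratios were 1.19 for miR-206 and 1.21 for miR-133b, for miR-29a 1.16 and for let-7a 0.99. These counts describe letters on the mRNA strand and not binding.

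Genes whose products act on 3'UTRs were looked up as well. Of 39 genes for 3'UTR-binding and mRNA decay factors with an interval, 23 held 43 such intervals, 59.0% against 30.8% of all such genes, with a median longest 3'UTR of 3216.5 nt over the list. All 4 Argonaute genes, Ago1 to Ago4, held one, none of them in all 5 libraries. Mbnl1, a splicing factor that also binds 3'UTRs, had 92.4, 119 and 108 in control-IPs against 99.7 and 76.5 in miR-222-IPs at chr3:60626367-60627263. Pum2, of the Pumilio family, had 48.6, 64.7 and 78.3 against 86.3 and 105, and Celf2, a regulator of splicing and decay, had 67.3, 43.1 and 81.2 against 87.6 and 84.8. After scaling, of the 9 of these intervals with a peak in all 5 libraries, 0 were above in both experiments. The 2 below in both were of Mbnl1 and Celf1. Of all intervals compared, 17.4% were above and 18.4% below. Before scaling, the first miR-222-IP lay between the control-IPs of its experiment in both of these intervals. At Celf1 the second miR-222-IP was then above its control-IP, with 44.5 against 32.5. The median mean log2 ratio of the 9 was −0.14. Of 19 cleavage and polyadenylation factor genes with an interval, 5 held one, 26.3%, and none in all 5 libraries. Cpsf7 had the best supported, with 20.1 and 30.0 in control-IP replicates 2 and 4 against 45.6 and 86.4.

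Of 10 myogenic transcription factor genes with an interval, 7 held a 3'UTR-only one, 70% against 30.8% of all such genes, with a median longest 3'UTR of 1410 nt over the list. The MEF2 factors, partners of MyoD in muscle gene activation, had a peak in all 5 libraries. Mef2c had 97.7, 116 and 89.1 in the control-IPs against 79.6 and 50.6 in the miR-222-IPs, and both miR-222-IPs were below. Mef2a had 51.2, 150 and 76.5 against 69.9 and 65.7, with log2 ratios of −0.68 and −0.81 after scaling, and its unscaled value in miR-222-IP replicate 1 lay between the 2 control-IPs of its experiment. Mef2d had 39.6, 52.0 and 37.0 against 51.0 and 80.1. After scaling, 2 of the 3 were below in both experiments and 0 above, under a background of 18.4% below. Mef2c is also known from macrophages, and their part in its value was not tested. Id2 and Id3, inhibitors of MyoD partners, had peaks in 4 and 2 libraries, and Tcf12 in 3.

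No 3'UTR-only interval was assigned to any of 15 genes followed in the study, and 11 of them had an interval with both coding sequence and 3'UTR. Rbm24, a splicing regulator of muscle, is the nearest miss. Its interval, chr13:46429313-46431027, covers 1710 bases of 3'UTR and 5 of coding sequence and stop codon, with 20.5 and 90.5 in the miR-222-IPs and no listed peak in the control-IPs. It belongs to 109 intervals kept out by 1 to 10 coding bases, among 6749 with both kinds of base, whose median was 150 coding bases. One interval just inside, chr6:125160763-125162013, covers 161 bases of a Gapdh 3'UTR, but it was assigned to Iffo1 on the other strand, which has more 3'UTR bases there. It had 39.0 and 42.6 in control-IP replicates 2 and 4 against 25.4 and 128 in miR-222-IPs, and the transcripts cannot be told apart without strand.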

How the data were processed

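Ago2-bound RNA was sequenced from 6 RISC-IP libraries, of which 5 were used. The authors mapped reads to mm10 (SOAPSplice) and ran macs2 per library without changed settings; the deposited value of a peak is its −log10 p, 20 or more throughout. Which macs2 version and control track were used is not given in the sources used here. The title of miR-222-IP replicate 2 reads miR22 and its condition miR222, and the condition was used. Peaks were merged at an overlap of 1 bp or a touch (gap of 0 bp), and the highest −log10 p of a library over an interval was its value. Intervals were classed with GENCODE M21, the stop codon counting as coding. Python 3.11.15, numpy 2.4.6, pandas 2.3.3 and pysam were used.

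Classes were compared over libraries by exact sign-flip tests, and conditions by exact permutation within experiments, with Benjamini-Hochberg adjustment. Statistics were tested on simulated data. Named intervals were the 10 with the highest mean log2 −log10 p in all 5 libraries, those of the 5 genes with most, the 3 largest and 3 smallest ratios beyond all control-IPs, 8-mer intervals in miR-222-IPs alone, and up to 4 per gene list. The intervals and lists were chosen with earlier results of these data known. Some withheld genes are not reported here.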

Additional observations from a re-analysis of the deposited data

How the results depend on the processing

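Differences in signal and width between 3'UTR-only and coding-only intervals kept their sign under each alternative tried. Of 109 alternative values, 70 stayed within the limits set for them and 4 turned in sign. Peaks of −log10 p of 50 or more left 1721 intervals, with 35.1% in miR-222-IP replicate 2 alone, 47 above and 27 below both sets of control-IPs, and a difference with the 7-mer of 0.027. With lists of equal length there were 2087 intervals, 4.70% in miR-222-IP replicate 2 alone, and 81 above and 46 below. Without scaling 404 were above and 16 below, and with scaling to the summed −log10 p 12 and 233. Filling missing peaks with 20 gave 755 above and 1242 below, since filled values are scaled too, and a difference with the 7-mer of 0.11. The 8-mer gave 0.050. With every base in 3'UTR, 25.9% were in miR-222-IP replicate 2 alone.

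Leaving out 1 library at a time gave 266 to 442 above and 188 to 344 below, as fewer control-IPs or 1 experiment are then to be passed, 24.6% to 34.7% in miR-222-IP replicate 2 alone, and a difference between classes in log2 ratio of −0.0082 (without control-IP replicate 4) to 0.16. The cause of the other shifts was not tested. No paired analysis was possible because the labels number no replicates across the groups. They give the experiment, which was already the block in the comparisons of log2 ratios, and without it the difference between classes was 0.07 and that with the 7-mer −0.08. The depth of the libraries is unknown, and no peak under 20 is listed, so no ratio was formed where a library had none.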

Other observations

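Other short motifs were counted in the same intervals, on the mRNA strand. The Pumilio motif TGTANATA stood in 616 of the 3851 intervals (16.0%) at 0.232 per kb, against 0.218 per kb in 3'UTR without an interval and 0.0774 in coding-only intervals. The AU-rich motif TATTTAT stood in 686 (17.8%) at 0.271 per kb, against 0.281 and 0.159. In windows of 500 bp these motifs were held by 8.98% and 10.7% of interval centres and by 9.50% and 11.3% of windows without an interval. The poly(A) signal AATAAA was less dense inside the intervals, at 0.755 per kb against 0.829. GC content was 44.8% in the intervals, 43.0% in 3'UTR without one and 46.7% in coding-only intervals.

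Single intervals of genes of other cell types were few. Cx3cr1, the fractalkine receptor of macrophages and microglia, had −log10 p of 57.8, 58.2 and 57.2 in the control-IPs and 56.4 and 50.9 in the miR-222-IPs, and it holds the miR-222 7-mer. Pdgfra, of fibroblasts, had a peak in control-IP replicate 4 alone (20.1). No endothelial or adipocyte marker held a 3'UTR-only interval.

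The highest intervals with a peak in both miR-222-IPs and no control-IP, named after they were seen, were those of Map3k20 (54.2 and 53.2), Gm10340 (50.9 and 48.3), Wasl (46.2 and 55.8), Bach1 (45.4 and 62.0) and Kif5c (43.3 and 49.0), and none of the 5 held the miR-222 7-mer.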
